A study of Homo sapiens with 36 samples.

Results

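OE33 and FLO1 are established human cell lines from esophageal adenocarcinoma, the gland-forming cancer of the lower esophagus, and the RNA of their unexposed control cells was compared at baseline. The 6 libraries were chosen by their labels, 3 from OE33 and 3 from FLO1, out of 36 libraries in 12 groups. In both lines the cells carried a stable non-targeting shRNA (shControl), so the control vector was shared, and neither group received acidic bile salts (ABS). OE33 was grown in RPMI1640 and FLO1 in DMEM, and the line and its medium cannot be told apart. The other groups of the study carried 1 of 2 shRNAs against APE1, the base excision repair endonuclease encoded by APEX1, or were given ABS at 200 µM, and they are used here only to ask whether a line difference recurred in other libraries. Each line is 1 culture lineage. The study calls the 3 libraries of a group independent biological replicates. The p-values measure the spread between libraries within groups, pooled over the 12 groups, and not the spread between tumors.

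An epithelium is held together by adherens junctions, tight junctions and desmosomes, and transcription factors such as GRHL2, OVOL1 and ELF3 keep the genes of these junctions active. ZEB1 and ZEB2 repress the same genes, and the microRNAs of the miR-200 family in turn repress ZEB1 and ZEB2. Carcinoma lines sit at different points between the epithelial and the mesenchymal state, and esophageal adenocarcinoma arises from a columnar lining that has replaced squamous epithelium.

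The OE33 libraries held 26925056, 28366304 and 29133468 counts, and the FLO1 libraries 27138085, 31174985 and 26269031. Levels are CPM, the counts of a gene scaled to a common library size by TMM factors, differences are log2 fold changes of OE33 over FLO1 with their standard errors (SE), and means have the SD over n = 3 libraries. CPM is not divided by gene length, so levels are compared between lines for 1 gene and not between genes. Calls are those of edgeR's quasi-likelihood test over all 36 libraries, where the adjusted p had to lie under 0.05. FLO1 replicate 1 stood apart at low levels: the genes above 0.3 CPM in 1 library and below 0.05 CPM in the others of its group numbered 10, 4 and 7 in OE33 replicates 1 to 3, against 25, 1 and 0 in FLO1 replicates 1 to 3. Of 2121 genes at 100 CPM or more in FLO1, 17, 15 and 16 had no count in the OE33 libraries, whereas of 2264 genes at 100 CPM or more in OE33, 1, 0 and 3 had no count in the FLO1 libraries. Levels near 0 thus had a higher floor in FLO1 than in OE33. The source of this floor, and its part in the low FLO1 values below, was not tested.

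APEX1, the gene that the study targets (chr14:20455191-20457772, plus strand), was at a like level in both control groups. It had 211, 202 and 200.4 CPM in OE33, against 192, 184 and 189 CPM in FLO1. The libraries did not overlap, but the difference was not called (log2 fold change 0.12 ± 0.08, edgeR adjusted p = 0.153), and its size was small beside those that follow.

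Most of the transcriptome differed. Of 18199 genes tested, 14114 (77.6%) were called, 6850 (37.6%) higher and 7264 (39.9%) lower in OE33, and 4085 were not called. Tested against a 2-fold difference, 7195 genes (39.5%) passed, 3369 (18.5%) higher and 3826 (21%) lower. The libraries of the lines did not overlap for 79.2% of the genes tested. The median log2 fold change over all genes was -0.06 and the median of its absolute size 0.99. With 77.6% of all genes called, a list of genes is described below by how its calls divide between the directions and by its median, since a high share of called members is the background of these data.

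Both lines are labelled epithelial, and the defining markers of epithelium were clear in OE33 and mixed in FLO1. OE33 expressed the adhesion molecule EPCAM and E-cadherin (CDH1) and had nearly no vimentin (VIM), whereas FLO1 had high vimentin, low E-cadherin and traces of EPCAM. The keratins KRT8 and KRT18, which simple epithelia express, were strong in both lines. N-cadherin (CDH2) had 1 count over the 3 OE33 libraries and 2 counts over the 3 FLO1 libraries. Defining markers of other cell types were at or near 0: PTPRC, the pan-leukocyte antigen, had 1 count in OE33 and 0 in FLO1, CD3D and MS4A1 of lymphocytes had none in either line, and PECAM1 of endothelium had 1 count in OE33 and 4 in FLO1. Over the whole marker lists, 6 of 16 immune markers had enough counts to be tested, of which 3 were higher and 2 lower in OE33, and their summed level was 8.18 to 12.1 CPM in OE33 and 5.38 to 6.16 CPM in FLO1. Of 10 endothelial markers 4 were tested, of which 1 was higher and 3 lower in OE33, with a summed level of 7.32 to 9.34 CPM in OE33 and 4.2 to 6.31 CPM in FLO1. The part of other cell types in the results was not tested. Of 12 fibroblast markers 4 were expressed enough to be tested, and 2 were lower in OE33, namely FBLN1, a matrix glycoprotein, at 0.343 ± 0.133 CPM in OE33 and 47.4 ± 6.29 CPM in FLO1, and COL1A1, a chain of type I collagen, at 3.82 ± 0.222 CPM in OE33 and 22.7 ± 0.9896 CPM in FLO1. With 1 library left out, other than FLO1 replicate 1, 4 of the 12 were called lower. Those fits tested 18637 to 18654 genes, against 18199 with all libraries, so further markers may have entered the test. The summed level of the tested fibroblast markers was 4.13 to 4.43 CPM in OE33 and 62.4 to 74.4 CPM in FLO1. The defining fibroblast genes PDGFRA and THY1 had 0 counts in OE33 and 43 and 11 counts in FLO1, of which 32 of the PDGFRA counts came from replicate 1. In bulk RNA, fewer cells of a type and less RNA per cell cannot be told apart.

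Genes of epithelial adhesion were nearly all higher in OE33. Of 37 genes tested, 36 were higher in OE33, none was lower and 1 was not called, with a median log2 fold change of 5.87, against 37.6% higher and a median of -0.06 over all genes. EPCAM (chr2:47345158-47387601, plus strand) had 609, 625 and 611 CPM in OE33, against 1.65, 0.806 and 0.369 CPM in FLO1 (log2 fold change 9.35 ± 0.20, edgeR adjusted p = 1.62e-31). CDH1 (chr16:68737225-68835548, plus strand), the cadherin of adherens junctions, had 356, 353 and 388 CPM in OE33, against 9.05, 6.66 and 7.12 CPM in FLO1 (log2 fold change 5.59 ± 0.11, edgeR adjusted p = 5.62e-32). The groups were far apart in every library, and FLO1 replicate 1 was the highest FLO1 library for both genes. Tight junction claudins followed: CLDN4 had 1154, 1043 and 994 CPM in OE33, against 11.2, 6.09 and 9.93 CPM in FLO1, and CLDN7 249, 236 and 221 CPM in OE33, against 0.934, 0.299 and 0.184 CPM in FLO1. Their log2 fold changes were 6.88 ± 0.16 and 8.97 ± 0.19. Vesicle sorting and surface proteolysis genes of polarized epithelia behaved alike. MAL2, a membrane protein of apical transport, averaged 478 ± 20.6 CPM in OE33 and 0.595 ± 0.394 CPM in FLO1, and RAB25, a small GTPase of apical recycling, 143 ± 10.5 CPM in OE33 and 0.375 ± 0.146 CPM in FLO1. The membrane serine protease ST14 averaged 643 ± 47.9 CPM in OE33 and 1.301 ± 0.801 CPM in FLO1, and its inhibitor SPINT1 263 ± 8.41 CPM in OE33 and 0.726 ± 0.255 CPM in FLO1. Among desmosome and envelope genes, PKP2 (plakophilin 2) averaged 118 ± 6.21 CPM in OE33 and 0.3505 ± 0.0597 CPM in FLO1, and EVPL (envoplakin) 124 ± 7.47 CPM in OE33 and 0.4304 ± 0.205 CPM in FLO1. The member that was not called was DSP, desmoplakin, which links desmosomes to keratin filaments. DSP had 238, 245 and 280.4 CPM in OE33, against 281, 292 and 277 CPM in FLO1, with overlapping libraries (log2 fold change -0.15 ± 0.12, edgeR adjusted p = 0.228). In a fit of the 6 libraries alone DSP was called lower (log2 fold change -0.17, edgeR adjusted p = 0.0482), and without FLO1 replicate 1 the count stayed 36 of 37.

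**Figure D1:**
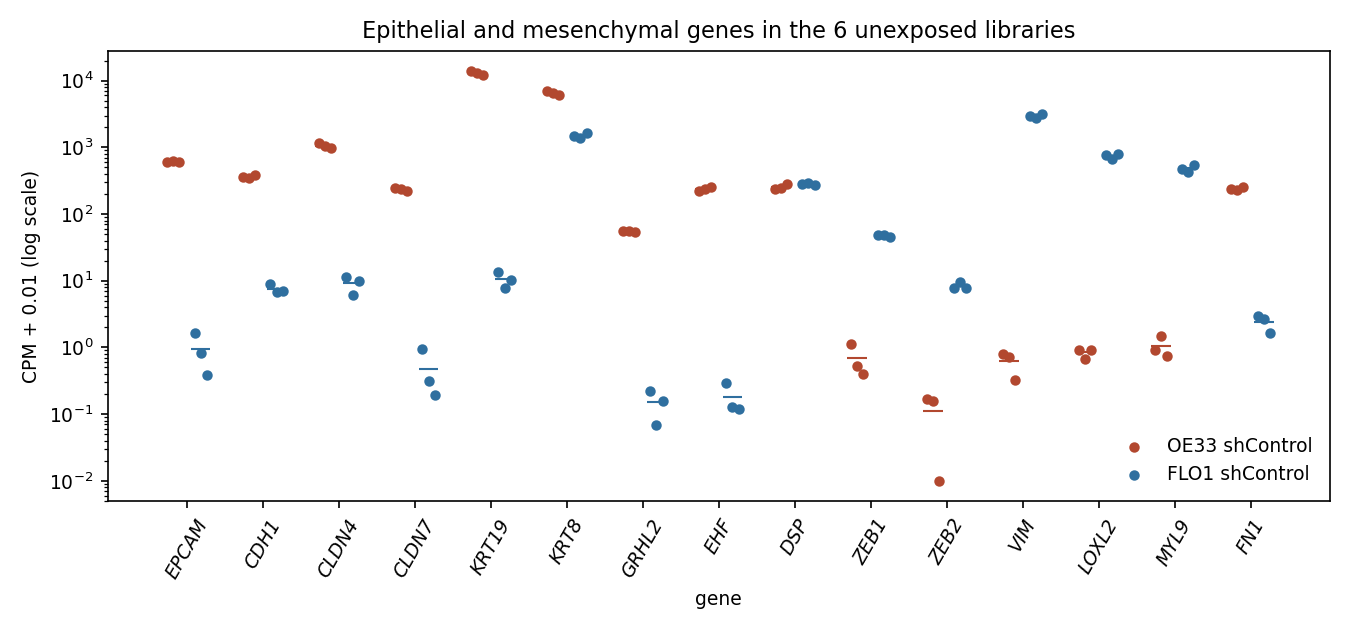
Level of 15 epithelial and mesenchymal genes in each of the 6 libraries, as CPM + 0.01 on a log scale; points are libraries, OE33 left and FLO1 right of each tick, and horizontal lines are means over 3 libraries. EPCAM, CDH1, the claudins, KRT19, GRHL2, EHF and FN1 stand higher in OE33, ZEB1, ZEB2, VIM, LOXL2 and MYL9 stand higher in FLO1, and DSP overlaps.

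The transcription factors of the epithelial program stood higher in OE33 in the same way. Of 12 tested, 10 were higher, 1 lower and 1 not called, with a median log2 fold change of 5.89. EHF, an ETS factor of glandular epithelia, had 221, 234 and 251 CPM in OE33, against 0.287, 0.119 and 0.111 CPM in FLO1. The related ELF3 had 272, 248 and 237 CPM in OE33, against 1.44, 0.418 and 0.553 CPM in FLO1. All libraries of OE33 lay above all of FLO1 for both factors. GRHL2, which activates CDH1 and claudin genes, had 54.8, 55.02 and 54.7 CPM in OE33, against 0.215, 0.0597 and 0.148 CPM in FLO1 (log2 fold change 8.61 ± 0.20, edgeR adjusted p = 4.08e-30). GRHL3, its relative, averaged 56.3 ± 1.295 CPM in OE33 and 0.439 ± 0.122 CPM in FLO1. The zinc finger factor OVOL1, which opposes mesenchymal genes, averaged 32.7 ± 1.17 CPM in OE33 and 0.102 ± 0.0721 CPM in FLO1. The grainyhead and OVOL factors thus lay on the same side as the junction genes given above. The exception was TFAP2C, an AP-2 factor of early ectoderm and trophoblast, which had 2.22, 3.32 and 1.87 CPM in OE33, against 25.9, 29.6 and 28.9 CPM in FLO1 (log2 fold change -3.51 ± 0.13, edgeR adjusted p = 1.05e-23). Its relative TFAP2A was not called, at 46.6 ± 2.11 CPM in OE33 and 44.7 ± 1.59 CPM in FLO1.

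The classical factors of epithelial-mesenchymal transition (EMT) did not move as 1 group. Of 6 tested, 3 were higher and 3 lower in OE33. ZEB1 (chr10:31318495-31529814, plus strand) had 1.11, 0.521 and 0.388 CPM in OE33, against 48.3, 48.9 and 45.7 CPM in FLO1 (log2 fold change -6.16 ± 0.24, edgeR adjusted p = 2.00e-23). ZEB2 (chr2:144364364-144524583, minus strand) had 0.158, 0.149 and 0 CPM in OE33, against 7.899, 9.62 and 7.79 CPM in FLO1 (log2 fold change -6.35 ± 0.33, edgeR adjusted p = 1.21e-19). These repressors were thus the opposite of the junction genes in every library. SNAI1 was also lower, at 2.65 ± 0.173 CPM in OE33 and 6.13 ± 1.199 CPM in FLO1 (log2 fold change -1.20 ± 0.18). SNAI2, its relative, was higher, at 8.503 ± 0.592 CPM in OE33 and 0.194 ± 0.113 CPM in FLO1 (log2 fold change 5.43 ± 0.31). FOXC2, a forkhead factor of mesenchyme, was higher too, with 15.7, 17.99 and 15.7 CPM in OE33, against 0.215, 0.149 and 0 CPM in FLO1. TWIST1 had 1 count in OE33 and none in FLO1 and was not tested.

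MicroRNAs of the miR-200 family come from a cluster on chromosome 1 and another on chromosome 12, and polyA libraries sample only their long primary transcripts, so the counts are few. MIR200CHG, the host transcript of miR-200c and miR-141, had 18, 19 and 21 counts in OE33 and 0 in each FLO1 library, at least 21.2-fold higher against a floor of 3 counts over the group. The stretch annotated as MIR429 had 14, 11 and 11 counts in OE33 and 0 in each FLO1 library, and that of MIR200A 7, 8 and 7 counts in OE33 and 0 in each FLO1 library. MIR200B, MIR200C and MIR141 had 12, 2 and 4 counts over the OE33 libraries and 0 in FLO1, too few to test. Primary transcript counts came from OE33 alone at this depth, and mature microRNAs were not measured. The 5 mature sequences are printed because their seeds (bases 2 to 8, in capitals) split the family into 2 seed groups that differ at 1 base (sequences and GRCh38.p14 positions from RefSeq).
miR-200b-3p (chr1:1167160-1167181): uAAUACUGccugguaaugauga
miR-200c-3p (chr12:6963742-6963764): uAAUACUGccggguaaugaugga
miR-429 (chr1:1169055-1169076): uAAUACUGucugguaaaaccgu
miR-200a-3p (chr1:1167916-1167937): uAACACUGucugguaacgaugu
miR-141-3p (chr12:6964155-6964176): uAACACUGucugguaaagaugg

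The 3' UTRs of ZEB1 and ZEB2 hold the complements of both seeds many times over, CAGTATT for the first 3 microRNAs and CAGTGTT for the last 2. The ZEB1 3' UTR of 2549 bases held 6 matches to CAGTATT (2.354 per kb) and 3 to CAGTGTT (1.177 per kb), and the ZEB2 3' UTR of 5370 bases 5 (0.931 per kb) and 4 (0.745 per kb). Over 19133 3' UTRs of the annotation, read on the transcript strand, the densities were 0.117 and 0.135 per kb. Of these matches 4 are shown with the bases before them, the match to bases 2 to 8 of the microRNA in capitals. A match is a description of the letters and not a measured site. Whether these microRNAs had a part in the ZEB1 and ZEB2 difference between the lines was not tested.
ZEB1, first match to CAGTATT: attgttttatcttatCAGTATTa
ZEB1, second match to CAGTATT: atgctaaatccgcttCAGTATTt
ZEB2, first match to CAGTATT: cgcactaccatacatCAGTATTt
ZEB2, first match to CAGTGTT: tgcaaaaattttgtaCAGTGTTa

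ZEB factors bind DNA at E-boxes of the form CAGGTG, read as CACCTG on the other strand. In the window from 250 bases before to 50 bases after a gene's start, 7231 of 35116 promoter windows of all genes (20.6%) held that motif on either strand, as did 19.4% of the windows of the genes tested. Of the epithelial adhesion list, 19 genes had a window in the table, CDH1 and EPCAM not among them, and 15 of their 28 windows (53.6%) held the motif. Among genes past 2-fold the share was 24.2% for those higher and 19.3% for those lower in OE33. DSP, the member whose level did not separate the lines, also has a window with 2 such motifs. Binding of ZEB factors was not measured, and a part of the motif in the line difference was not tested. The windows of CLDN7, with 5 motifs, and of RAB25, with 2, are printed as examples from genes that stood far higher in OE33, with each motif in capitals (GRCh38.p14, RefSeq, written 5' to 3' on the strand of the gene).
CLDN7 (chr17:7262429-7262728, minus strand): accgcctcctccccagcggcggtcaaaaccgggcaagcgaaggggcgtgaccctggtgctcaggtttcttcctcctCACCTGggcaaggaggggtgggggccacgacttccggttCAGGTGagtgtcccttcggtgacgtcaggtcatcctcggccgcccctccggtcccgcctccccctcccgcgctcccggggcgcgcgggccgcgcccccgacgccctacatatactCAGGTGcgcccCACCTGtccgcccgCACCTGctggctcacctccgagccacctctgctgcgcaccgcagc
RAB25 (chr1:156060910-156061209, plus strand): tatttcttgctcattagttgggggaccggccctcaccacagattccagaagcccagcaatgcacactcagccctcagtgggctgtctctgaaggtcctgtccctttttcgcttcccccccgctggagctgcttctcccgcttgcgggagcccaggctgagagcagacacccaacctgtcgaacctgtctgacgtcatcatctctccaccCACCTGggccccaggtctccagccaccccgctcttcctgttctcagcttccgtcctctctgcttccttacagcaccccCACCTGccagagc

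Mesenchymal products were mostly on the FLO1 side. Of 30 tested, 18 were lower in OE33, 7 higher and 5 not called, with a median log2 fold change of -2.30. Of these 30, 5 had under 3 counts in 1 line, and 6 further listed genes had too few counts to test. VIM (chr10:17228259-17237593, plus strand), the intermediate filament of mesenchymal cells, had 0.791, 0.708 and 0.317 CPM in OE33, against 2903, 2764 and 3142 CPM in FLO1 (log2 fold change -12.25 ± 0.34, edgeR adjusted p = 6.96e-27). LOXL2, a collagen cross-linking oxidase, had 0.9101, 0.6705 and 0.916 CPM in OE33, against 767, 665 and 798 CPM in FLO1. MYL9, a myosin light chain of contractile cells, had 0.9101, 1.45 and 0.7402 CPM in OE33, against 481, 429 and 539.98 CPM in FLO1. Every OE33 library was at or below 1.45 CPM for these genes and every FLO1 library was strong. Collagen genes did not move as 1 group. COL5A1 averaged 0.0754 ± 0.0384 CPM in OE33 and 139 ± 6.89 CPM in FLO1, and COL6A2 had 1 count over the OE33 libraries and 13366 over the FLO1 libraries, a ratio of FLO1 to OE33 of 12200 (95% interval 2180 to 480000, exact, counting error only). COL12A1 was higher, at 8.51 ± 0.464 CPM in OE33 and 0.493 ± 0.212 CPM in FLO1, and COL3A1, with 3 counts in OE33 and 21 in FLO1, and COL4A1, with 3 in each line, were too low to test; these 3 collagens were picked after their values were seen. The matrix metalloproteinase MMP2 had 2 counts over the OE33 libraries and 6974 over the FLO1 libraries, a ratio of 3170 (878 to 26200) by the same interval. Against the list stood FN1, fibronectin, a matrix protein that EMT commonly raises. FN1 had 241, 229 and 252 CPM in OE33, against 2.91, 2.63 and 1.66 CPM in FLO1 (log2 fold change 6.64 ± 0.27, edgeR adjusted p = 5.58e-22), so the more epithelial line had the more fibronectin RNA in every library.

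Keratins of simple epithelia were higher in OE33, and KRT8 and KRT18 were strong in both lines. Of 8 tested, 7 were higher and 1 not called, and their summed level was 24100 to 27200 CPM in OE33 and 2360 to 2750 CPM in FLO1. KRT19 had 13859, 12924 and 12241 CPM in OE33, against 13.5, 7.85 and 10.3 CPM in FLO1 (log2 fold change 10.27 ± 0.33, edgeR adjusted p = 3.13e-23). KRT7 had 3543, 3440.5 and 3157 CPM in OE33, against 21.4, 15.9 and 18.2 CPM in FLO1. These keratins were low in every FLO1 library, while KRT8 and its partner KRT18 were not. KRT8 averaged 6575 ± 463 CPM in OE33 and 1494 ± 123 CPM in FLO1, and KRT18 2444 ± 93.1 CPM in OE33 and 924 ± 89.7 CPM in FLO1, with log2 fold changes of 2.14 ± 0.09 and 1.40 ± 0.08.

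Squamous genes mark the lining that adenocarcinoma replaces, and OE33 carried a part of them. Of 23 tested, 16 were higher in OE33, 2 lower and 5 not called, with a median log2 fold change of 3.01. Of these 23, 7 had under 3 counts in 1 line, and 9 further listed genes had too few counts to test. The filter keeps a gene with enough counts in any 1 group. The division may thus be set in part by how genes entered the test, and it does not extend to the untested members. DSC3, a desmosomal cadherin of stratified epithelium, had 16.97, 17.5 and 23.7 CPM in OE33, against 0.0718, 0.119 and 0 CPM in FLO1. KRT13, a keratin of esophageal squamous cells, had 18.7, 15.98 and 15.4 CPM in OE33, against 0.359, 0.0597 and 0.148 CPM in FLO1, and KRT16 averaged 17.4 ± 1.92 CPM in OE33 and 0.455 ± 0.193 CPM in FLO1. IVL, involucrin of the cornified envelope, had 1107 counts over the OE33 libraries and 2 over the FLO1 libraries, a ratio of OE33 to FLO1 of 608 (168 to 5020). These envelope and stratified epithelium genes were present in each OE33 library and low in FLO1. The defining factor of squamous cells, TP63, was at the floor with 5 counts in each line, and DSG3 had 15 counts in OE33 and 12 in FLO1. The basal keratins KRT17 and KRT6A were not called, and FLO1 replicate 1 stood apart in them. KRT17 had 3.52, 8.68 and 9.55 CPM in OE33, against 22.98, 0.836 and 2.88 CPM in FLO1 (log2 fold change -0.27 ± 0.69, edgeR adjusted p = 0.732). Without FLO1 replicate 1 the log2 fold change of KRT17 was 2.01 (edgeR adjusted p = 0.00912). KRT6A had 3.28, 4.58 and 3.91 CPM in OE33, against 5.601, 0.0299 and 0.184 CPM in FLO1, a log2 fold change of 1.06 ± 0.57 with all libraries and of 5.24 without that library (edgeR adjusted p = 1.00e-12), and it was called with no filter on low counts too (edgeR adjusted p = 7.26e-07). Without OE33 replicate 1 the value for KRT17 was 0.05, so its sign depended on single libraries. Without FLO1 replicate 1, 19 squamous genes and 21 columnar products were higher in OE33, against 16 and 17 with all libraries. That fit tested 18635 genes, against 18199, so members may have entered the test with it. How far the rise came from the library or from the filter was not tested.

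Columnar lineage factors were split between the lines. Of 17 tested, 11 were higher and 6 lower in OE33, with a median log2 fold change of 1.10. FOXA1, a pioneer factor of endodermal epithelia, had 57.1, 54.01 and 56.8 CPM in OE33, against 0.754, 1.13 and 1.22 CPM in FLO1 (log2 fold change 5.75 ± 0.14, edgeR adjusted p = 1.05e-29). PDX1, a factor of duodenum, antrum and pancreas, averaged 5.58 ± 0.526 CPM in OE33 and 0.164 ± 0.0836 CPM in FLO1. These factors were low in FLO1, whereas CDX2 and GATA6 were closer in level between the lines. CDX2, the intestinal homeobox factor, averaged 24.1 ± 1.79 CPM in OE33 and 11.2 ± 0.187 CPM in FLO1, and GATA6 10.9 ± 0.749 CPM in OE33 and 5.64 ± 0.966 CPM in FLO1, with log2 fold changes of 1.10 ± 0.12 and 0.95 ± 0.12. On the FLO1 side stood ONECUT2, a factor of liver, pancreas and neuroendocrine cells, at 0.484 ± 0.06496 CPM in OE33 and 14.8 ± 1.82 CPM in FLO1, and GATA4, which is recurrently amplified in this cancer, at 14.2 ± 0.432 CPM in OE33 and 47.7 ± 6.41 CPM in FLO1. GATA5 had 0 counts in OE33 and 93 in FLO1, at least 28.2-fold lower in OE33.

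Products of columnar and glandular cells leaned to OE33. Of 26 tested, 17 were higher, 1 lower and 8 not called, with a median log2 fold change of 3.89, or 3.10 with genes under 3 counts in a line set at their bound. ANXA10, an annexin of gastric foveolar cells, had 114, 118 and 105 CPM in OE33, against 0.251, 0.179 and 0.0369 CPM in FLO1 (log2 fold change 9.43 ± 0.21, edgeR adjusted p = 4.05e-31). AGR2, a disulfide isomerase of mucus-producing cells, had 108, 107 and 104 CPM in OE33, against 1.36, 0.119 and 0.148 CPM in FLO1. The membrane mucin MUC4 had 73.1, 72.6 and 75.04 CPM in OE33, against 0.0718, 0.239 and 0.111 CPM in FLO1. The groups were far apart for each of these genes, and the FLO1 values of AGR2 were highest in replicate 1. The adhesion molecule CEACAM6 had 169, 167 and 175 CPM in OE33, against 1.18, 0.209 and 0.111 CPM in FLO1, and the trefoil peptide TFF1 had 575 counts over the OE33 libraries and 3 over the FLO1 libraries, a ratio of 211 (72.1 to 1020). The membrane mucin MUC1 differed less, at 16.5 ± 0.441 CPM in OE33 and 6.73 ± 0.822 CPM in FLO1 (log2 fold change 1.29 ± 0.16). ANXA10, AGR2, MUC4 and CEACAM6 were at or above 72.6 CPM in every OE33 library. The intestinal secreted mucin MUC2 was low in both lines and not called, with 0.237, 1.01 and 0.247 CPM in OE33, against 1.15, 0.0299 and 0 CPM in FLO1. Without FLO1 replicate 1 its log2 fold change was 4.59 and it was called (edgeR adjusted p = 3.08e-04). The gastric claudin CLDN18 was not called either, with 1.82, 0.447 and 0.211 CPM in OE33, against 0.575, 0.179 and 0.148 CPM in FLO1 (log2 fold change 1.44 ± 0.68, edgeR adjusted p = 0.0517). Without FLO1 replicate 1 its log2 fold change was 2.26 (edgeR adjusted p = 0.0157), and it was called likewise without OE33 replicate 2, at 1.72, without OE33 replicate 3, at 1.90, and with no filter on low counts, at 1.42.

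**Figure D2:**
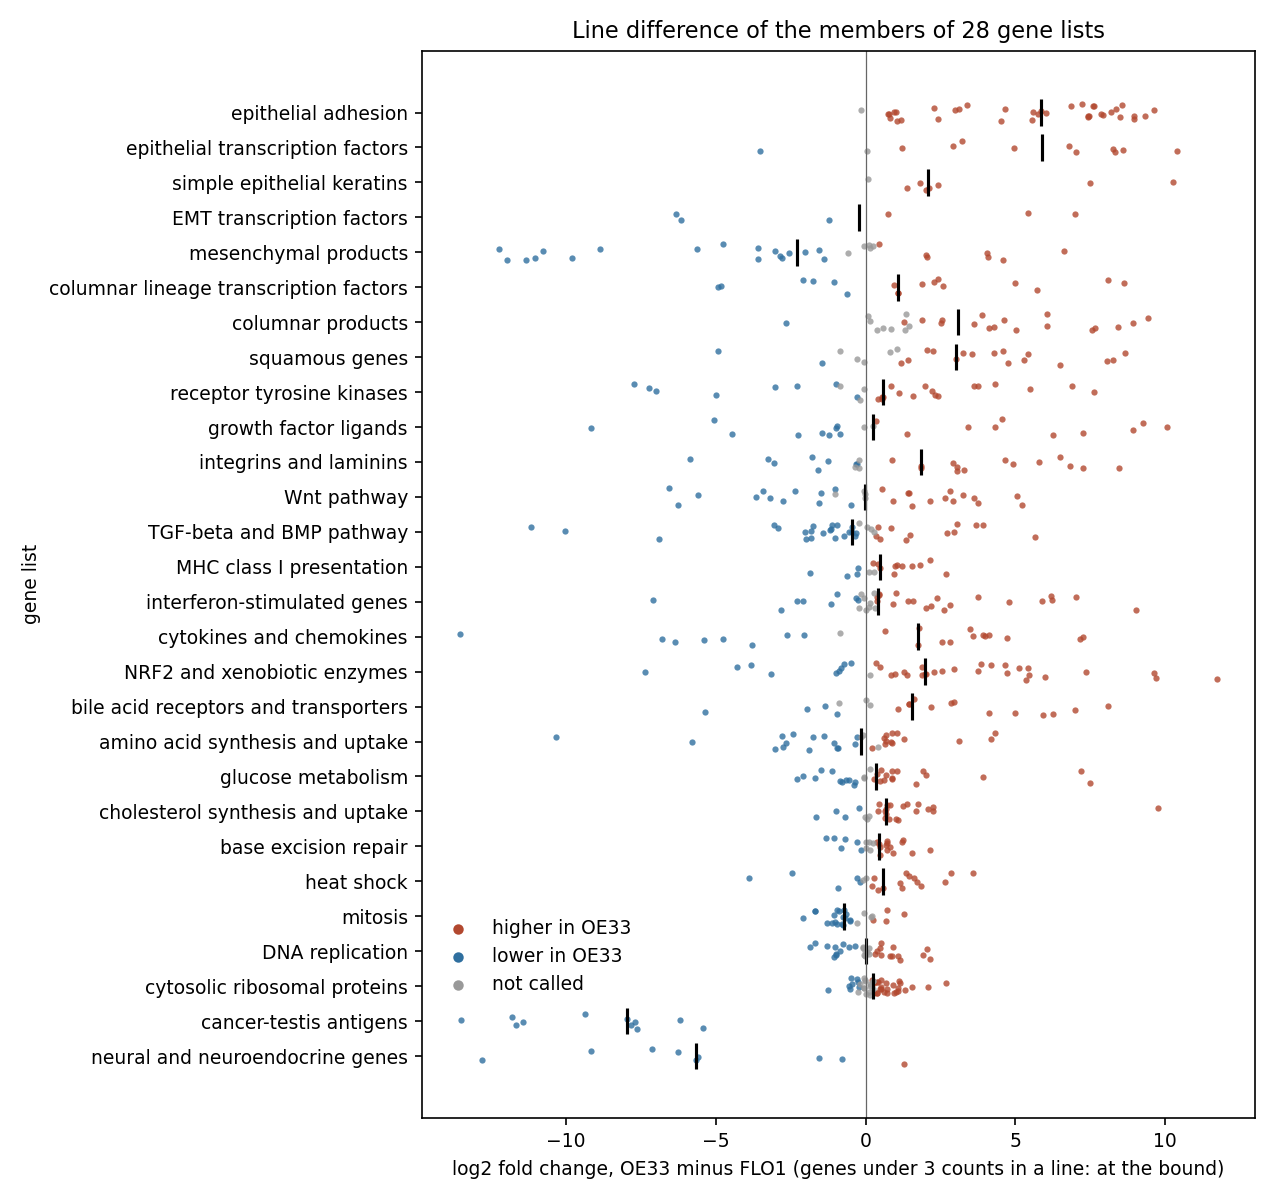
Log2 fold change, OE33 minus FLO1, of the tested members of 28 gene lists; each point is 1 gene, coloured by its call, and black bars are list medians, with genes under 3 counts in a line placed at their bound. Epithelial adhesion genes lie to the right of 0 apart from 1, cancer-testis antigens lie to the left, and most other lists hold members on both sides.

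Receptor tyrosine kinases divided by receptor. Of 28 tested, 17 were higher in OE33, 8 lower and 3 not called. MET, the receptor of hepatocyte growth factor (chr7:116672390-116798386, plus strand), had 2309.5, 2420.4 and 2651 CPM in OE33, against 56.2, 57.7 and 49.5 CPM in FLO1 (log2 fold change 5.50 ± 0.12, edgeR adjusted p = 1.65e-31). ERBB2, the HER2 receptor (chr17:39687914-39730426, plus strand), had 1103, 1099.6 and 1059.8 CPM in OE33, against 90.5, 79.6 and 94.3 CPM in FLO1 (log2 fold change 3.63 ± 0.11, edgeR adjusted p = 3.01e-27). Both receptors, which are drug targets in this cancer, were strong in all OE33 libraries and weak but present in all FLO1 libraries. ERBB3, the partner of ERBB2, averaged 125 ± 0.501 CPM in OE33 and 6.21 ± 0.225 CPM in FLO1, and MST1R, the MET relative also called RON, 127 ± 4.35 CPM in OE33 and 0.648 ± 0.591 CPM in FLO1. The ephrin receptor EPHA1 averaged 66.3 ± 3.58 CPM in OE33 and 0.564 ± 0.134 CPM in FLO1. Other receptors were lower in OE33. INSR, the insulin receptor, had 0.198, 0.0745 and 0.141 CPM in OE33, against 19.2, 16.9 and 17.9 CPM in FLO1 (log2 fold change -6.99 ± 0.26, edgeR adjusted p = 6.71e-24), and IGF1R averaged 26.1 ± 0.789 CPM in OE33 and 129 ± 7.41 CPM in FLO1. INSR was thus at or below 0.198 CPM in OE33, whereas IGF1R was present in both lines. RET, the receptor of glial-derived neurotrophic factor, had 0 counts in OE33 and 703 in FLO1, at least 213-fold lower in OE33. ROR2, a Wnt receptor, had 0 counts in OE33 and 495 in FLO1, at least 150-fold lower. The collagen receptor DDR2 averaged 0.157 ± 0.121 CPM in OE33 and 5.24 ± 1.41 CPM in FLO1.

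Growth factor ligands showed a similar division, with EGF family ligands on the OE33 side. Of 21 tested, 10 were higher in OE33, 9 lower and 2 not called. Of these 21, 4 had under 3 counts in 1 line, and 6 further listed genes had too few counts to test. EREG (epiregulin) had 321, 347 and 402 CPM in OE33, against 0.395, 0.269 and 0.332 CPM in FLO1 (log2 fold change 10.07 ± 0.26, edgeR adjusted p = 3.70e-29). TGFA had 139, 139 and 147 CPM in OE33, against 0.395, 0.119 and 0.184 CPM in FLO1. AREG (amphiregulin) had 196, 195 and 185 CPM in OE33, against 0.826, 0.149 and 0.221 CPM in FLO1. All 3 ligands were at or below 0.826 CPM in every FLO1 library. EGF itself had 210 counts over the OE33 libraries and 0 in FLO1, at least 76.9-fold higher, and BTC (betacellulin) had 420 counts in OE33 and 1 in FLO1, a ratio of 462 (82.8 to 18200). IGF2, the fetal insulin-like growth factor, ran the other way with 0.554, 0.447 and 0.317 CPM in OE33, against 280.5, 224 and 260.4 CPM in FLO1 (log2 fold change -9.18 ± 0.20, edgeR adjusted p = 6.63e-31). IGF2, INSR and IGF1R were thus lower in OE33, and the EGF ligands named, ERBB2 and ERBB3 higher, with IGF1R and ERBB2 present in both lines. PDGFA was not called (log2 fold change -0.07 ± 0.11).

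The ERBB2 difference was shared by a run of neighbours on 17q12. Of 22 listed genes tested, ERBB2 among them, 17 were higher and 5 lower in OE33, with a median log2 fold change of 2.38. GRB7, an adaptor that binds ERBB2, had 136, 127 and 119.8 CPM in OE33, against 0.467, 0.478 and 0.332 CPM in FLO1 (log2 fold change 8.20 ± 0.18, edgeR adjusted p = 2.14e-31). MIEN1, which lies beside it, averaged 349.7 ± 32.8 CPM in OE33 and 29.9 ± 2.85 CPM in FLO1. The lipid remodeling gene PGAP3 averaged 128 ± 6.96 CPM in OE33 and 12.2 ± 2.01 CPM in FLO1, and the sterol transporter STARD3 313 ± 19.8 CPM in OE33 and 45.97 ± 3.93 CPM in FLO1. Along the chromosome the run of higher genes ended between MED24 and THRA, an edge that was picked after the values were seen. From TADA2A to MED24 (chr17:37406874-40061215), 41 coding genes were tested, of which 39 were higher and 1 lower in OE33, with a median of 2.55. TADA2A is only the first gene examined and was itself higher, at 2.85 ± 0.10, so the other end of the run was not determined. From THRA to TNS4 (chr17:40058290-40501597), 12 were tested, of which 5 were higher and 6 lower, with a median of -0.45. MED24 averaged 496 ± 18.6 CPM in OE33 and 77.2 ± 6.24 CPM in FLO1, and the next gene, THRA, 8.16 ± 1.21 CPM in OE33 and 22.6 ± 3.31 CPM in FLO1. The ribosomal protein genes RPL23 and RPL19 lie in the same run, and their log2 fold changes were 2.70 ± 0.16 and 2.09 ± 0.09. DNA copy number was not measured.

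**Figure D3:**
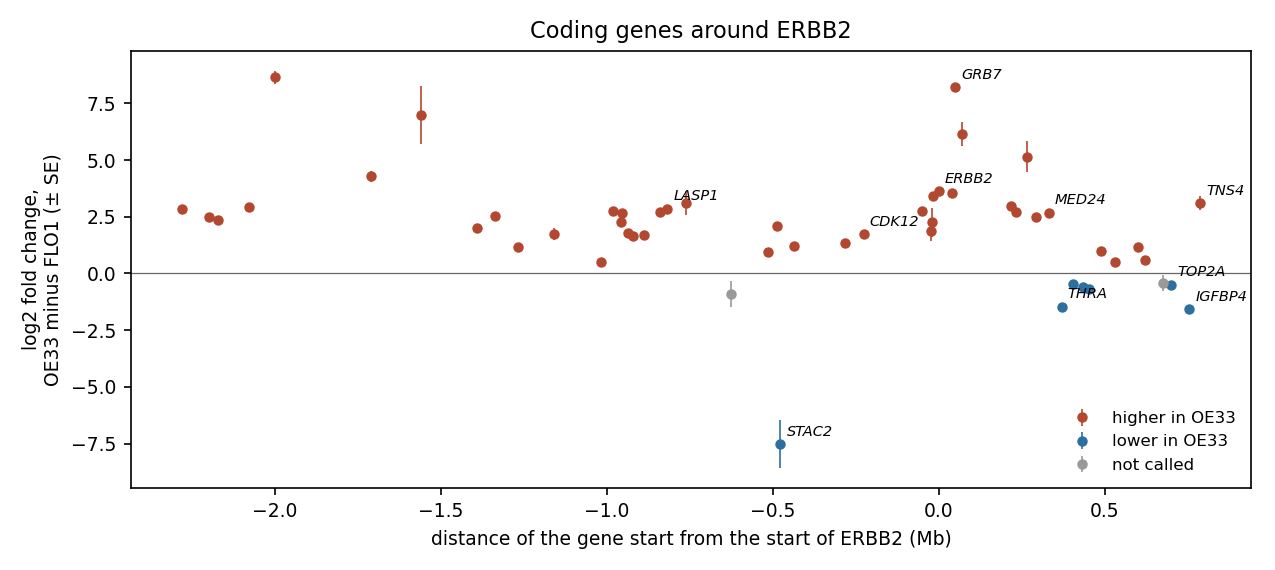
Log2 fold change (OE33 minus FLO1, with SE) of 53 coding genes against the distance of their start from the start of ERBB2 in Mb; colours give the calls. From the left edge to MED24, 39 of 41 genes are called higher, and beyond it 5 of 12 are.

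MET and its neighbours on 7q31 were higher as well, 6 of 6 tested, with a median log2 fold change of 2.38, and 54.4% of all chromosome 7 genes tested were higher, against 37.6% of all genes. CAPZA2, an actin capping subunit, averaged 569.6 ± 9.94 CPM in OE33 and 82.1 ± 10.5 CPM in FLO1, and TES, a focal adhesion protein, 483 ± 11.7 CPM in OE33 and 82.8 ± 4.69 CPM in FLO1. CAV2 averaged 586 ± 23.998 CPM in OE33 and 141 ± 5.83 CPM in FLO1. CAV1, caveolin 1, differed least, at 577 ± 17.1 CPM in OE33 and 419 ± 12.1 CPM in FLO1 (log2 fold change 0.46 ± 0.06). MET itself, at 5.50, was thus well above its neighbours in the size of its difference.

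Of 20 genes recurrently amplified in esophageal adenocarcinoma, 14 were higher in OE33, 5 lower and 1 not called. KLF5, a factor of gut epithelium, averaged 168 ± 7.38 CPM in OE33 and 17.98 ± 1.398 CPM in FLO1, CDK6 193 ± 30.4 CPM in OE33 and 41.1 ± 8.75 CPM in FLO1, and the survival gene BCL2L1 334 ± 15.4 CPM in OE33 and 78.7 ± 5.202 CPM in FLO1. FGFR2 had 14.6, 15.6 and 17.9 CPM in OE33, against 1.33, 1.07 and 1.14 CPM in FLO1.

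Tumor suppressors had no common direction. Of 19 tested, 6 (31.6%) were higher in OE33, 9 (47.4%) lower and 4 not called, against 37.6 and 39.9% over all genes. SMARCA4, an ATPase of the SWI/SNF chromatin remodeler, had 167, 158 and 162 CPM in OE33, against 13.3, 11.2 and 13.8 CPM in FLO1 (log2 fold change 3.67 ± 0.10, edgeR adjusted p = 1.48e-28). ARID1A, another subunit of that complex, ran the other way at 69.7 ± 3.51 CPM in OE33 and 193 ± 5.73 CPM in FLO1. CDKN2A, the p16 and ARF locus on 9p21, was expressed in both lines, at 542 ± 56.5 CPM in OE33 and 165 ± 9.71 CPM in FLO1, and its neighbour MTAP averaged 171 ± 8.597 CPM in OE33 and 28.6 ± 1.45 CPM in FLO1. CDKN2B, beside them, was not called at 33.2 ± 1.06 CPM in OE33 and 32.5 ± 1.17 CPM in FLO1. The fragile site gene FHIT averaged 1.61 ± 0.184 CPM in OE33 and 0.0801 ± 0.0562 CPM in FLO1, and RNF43, a brake on Wnt receptors, 17.6 ± 2.06 CPM in OE33 and 2.82 ± 0.705 CPM in FLO1. CDKN1B, the p27 inhibitor of cyclin-dependent kinases, was not called (log2 fold change -0.13 ± 0.11).

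Wnt genes were evenly split, with 14 of 30 tested higher (46.7%), 12 lower (40.0%) and 4 not called. The shares over all genes were 37.6 and 39.9%. The ligand WNT7B had 171, 168 and 166 CPM in OE33, against 3.99, 4.24 and 5.28 CPM in FLO1 (log2 fold change 5.23 ± 0.14, edgeR adjusted p = 1.83e-28), and WNT10A averaged 26.5 ± 1.85 CPM in OE33 and 2.15 ± 0.382 CPM in FLO1. DKK3, a secreted member of the Dickkopf family, averaged 0.164 ± 0.0671 CPM in OE33 and 15.6 ± 1.901 CPM in FLO1. TCF7L1, a repressive TCF factor, had 0.119, 0.4097 and 0.211 CPM in OE33, against 21.4, 16.96 and 19.6 CPM in FLO1. Its relative TCF7 was not called, at 27.3 ± 0.825 CPM in OE33 and 28.3 ± 2.06 CPM in FLO1.

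The TGF-beta and BMP list leaned to FLO1, with 22 of 38 tested lower, 12 higher and 4 not called, and a median log2 fold change of -0.45. The BMP ligands went in opposite directions. BMP4 had 90.5, 91.97 and 87.8 CPM in OE33, against 1.62, 1.49 and 2.21 CPM in FLO1 (log2 fold change 5.67 ± 0.12, edgeR adjusted p = 2.44e-31). BMP7 had 0.0791, 0.0745 and 0 CPM in OE33, against 54.6, 56.2 and 61.2 CPM in FLO1 (log2 fold change -10.05 ± 0.27, edgeR adjusted p = 1.46e-28). NOG, the secreted BMP antagonist noggin, had 1 count over the OE33 libraries and 7586 over the FLO1 libraries, a ratio of FLO1 to OE33 of 6900 (1240 to 273000). SMAD6, an intracellular inhibitor that BMP signaling induces, averaged 12.1 ± 0.911 CPM in OE33 and 100.4 ± 6.06 CPM in FLO1. Activin subunits were on the OE33 side: INHBB averaged 6.49 ± 0.0943 CPM in OE33 and 0.777 ± 0.113 CPM in FLO1, and INHBA 2.37 ± 0.215 CPM in OE33 and 0.181 ± 0.0389 CPM in FLO1.

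Integrins and laminins included the parts of the hemidesmosome, which anchors epithelia to the basement membrane. Of 25 tested, 14 were higher in OE33, 8 lower and 3 not called, with a median log2 fold change of 1.85. LAMA3, the alpha chain of laminin-332, had 186, 189 and 189.95 CPM in OE33, against 4.45, 2.57 and 3.099 CPM in FLO1 (log2 fold change 5.81 ± 0.13, edgeR adjusted p = 8.77e-31). ITGB4, the hemidesmosomal integrin, had 349, 349 and 318 CPM in OE33, against 6.64, 2.21 and 2.55 CPM in FLO1. Both genes were low in FLO1, and replicate 1 was its highest library in each. The epithelial integrin ITGB6 averaged 42.99 ± 1.29 CPM in OE33 and 0.2798 ± 0.318 CPM in FLO1, and the collagen receptor ITGA2 347 ± 33.8 CPM in OE33 and 11.5 ± 1.11 CPM in FLO1. ITGA11, a collagen receptor of fibroblasts, ran the other way with 0.0504 ± 0.0567 CPM in OE33 and 3.17 ± 0.444 CPM in FLO1.

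Of 17 genes of MHC class I presentation, 11 were higher in OE33, 4 lower and 2 not called, with a median log2 fold change of 0.48, and past 2-fold 5 were higher and 1 lower. HLA-C averaged 1591 ± 95.5 CPM in OE33 and 452 ± 22.8 CPM in FLO1, and B2M, the common light chain, 1299.99 ± 60.02 CPM in OE33 and 661 ± 61.8 CPM in FLO1. The peptide trimming enzyme ERAP2 averaged 125 ± 5.67 CPM in OE33 and 19.4 ± 2.67 CPM in FLO1. HLA genes are close copies of each other and polymorphic, so the division of reads among them is uncertain.

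Interferon-stimulated genes had 20 of 36 members higher, 8 lower and 8 not called, so that 77.8% were called, close to the 77.6% of all genes. SAMD9 had 80.3, 79.3 and 95.6 CPM in OE33, against 0.1795, 0.119 and 0.184 CPM in FLO1 (log2 fold change 9.03 ± 0.24, edgeR adjusted p = 1.33e-28), and its neighbour SAMD9L averaged 15.2 ± 0.978 CPM in OE33 and 0.1103 ± 0.0378 CPM in FLO1. Both restrict virus replication. OAS1, which senses double-stranded RNA, averaged 50.8 ± 5.43 CPM in OE33 and 0.671 ± 0.436 CPM in FLO1, but its relative OAS3 was not called at 118 ± 5.52 CPM in OE33 and 108 ± 7.03 CPM in FLO1. IFITM2 had 0.198, 0.298 and 0.106 CPM in OE33, against 31.3, 23.3 and 29.6 CPM in FLO1, whereas its neighbour IFITM1 averaged 12.9 ± 2.06 CPM in OE33 and 0.935 ± 0.04997 CPM in FLO1. ISG15 was not called (log2 fold change -0.17 ± 0.11).

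Cytokines divided into a set on each side, with 13 of 22 tested higher, 8 lower and 1 not called. CCL2, the monocyte chemokine, had 0 counts in all OE33 libraries and 453, 462 and 412 CPM in FLO1, at least 11900-fold lower in OE33. The chemokine CCL5 had 0.9496, 0.335 and 0.388 CPM in OE33, against 47.9, 42.6 and 44.9 CPM in FLO1, and IL32 averaged 4.58 ± 0.0336 CPM in OE33 and 191 ± 13.2 CPM in FLO1. The macrophage growth factor CSF1 averaged 1.52 ± 0.254 CPM in OE33 and 41.8 ± 4.35 CPM in FLO1. CCL2, CCL5, IL32 and CSF1 were thus lower in OE33, and so was TNF, at 0.0499 ± 0.0434 CPM in OE33 and 5.98 ± 0.293 CPM in FLO1. Higher in OE33 were IL18, an inflammasome cytokine, at 20.3 ± 1.997 CPM in OE33 and 0.1403 ± 0.127 CPM in FLO1, and the interleukin-1 antagonist IL1RN at 11.1 ± 0.855 CPM in OE33 and 0.0644 ± 0.0603 CPM in FLO1.

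NRF2 targets and xenobiotic enzymes were mostly higher in OE33, 27 of 37 tested, with 9 lower and 1 not called and a median log2 fold change of 2.00. NRF2 is the factor that raises detoxifying enzymes under oxidative stress. ALDH3A1, an aldehyde dehydrogenase of surface epithelia, had 125, 116 and 108 CPM in OE33 and 2 counts in all FLO1 libraries, a ratio of OE33 to FLO1 of 5140 (95% interval 1420 to 42400, exact, counting error only). MGST1, a membrane glutathione transferase, had 212, 211 and 203 CPM in OE33, against 0.251, 0.269 and 0.258 CPM in FLO1 (log2 fold change 9.62 ± 0.19, edgeR adjusted p = 4.10e-32). ALDH1A3, which makes retinoic acid, had 1269.5, 1322 and 1329.98 CPM in OE33, against 8.01, 8.42 and 7.53 CPM in FLO1. The NADPH-producing malic enzyme ME1 averaged 69.8 ± 1.48 CPM in OE33 and 0.0831 ± 0.0597 CPM in FLO1. The aldehyde and glutathione enzymes were thus present in every OE33 library and low in every FLO1 library. Against most of the list ran HMOX1, the heme oxygenase, with 4.47, 3.84 and 4.16 CPM in OE33, against 729.6, 649 and 697 CPM in FLO1 (log2 fold change -7.38 ± 0.17, edgeR adjusted p = 2.27e-30). AKR1B1 was not called, at 163 ± 17.6 CPM in OE33 and 148 ± 14.4 CPM in FLO1.

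Genes of bile acid handling bear on the exposure that the study used. Of 20 tested, 13 were higher in OE33, 4 lower and 3 not called, with a median log2 fold change of 1.55. Of these 20, 3 had under 3 counts in 1 line, and 12 further listed genes had too few counts to test. The efflux pumps ABCC3, which carries bile acid conjugates, and ABCG2 were on the OE33 side. ABCC3 had 118, 119 and 116 CPM in OE33, against 1.62, 1.37 and 1.55 CPM in FLO1 (log2 fold change 6.28 ± 0.14, edgeR adjusted p = 7.10e-31), and ABCG2 averaged 32.4 ± 0.8303 CPM in OE33 and 0.255 ± 0.126 CPM in FLO1. ABCB11, the bile salt export pump of hepatocytes, had 746 counts over the OE33 libraries and 1 over the FLO1 libraries, a ratio of 820 (147 to 32400) by the same exact interval. The bile acid receptors were scarce in both: NR1H4 (FXR) had 3 counts in OE33 and none in FLO1, GPBAR1 (TGR5) 7 counts in OE33 and 16 in FLO1, and the ileal uptake transporter SLC10A2 none in either.

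Acid and bicarbonate transport was evenly divided, with 10 of 20 tested higher, 9 lower and 1 not called. SLC16A3, the lactate exporter MCT4, had 592, 566 and 525 CPM in OE33, against 4.13, 2.81 and 3.51 CPM in FLO1 (log2 fold change 7.34 ± 0.17, edgeR adjusted p = 4.58e-30). SLC9A2, a sodium-proton exchanger, averaged 8.76 ± 1.67 CPM in OE33 and 0.289 ± 0.104 CPM in FLO1. CA8, a member of the carbonic anhydrase family without enzyme activity, had 0 counts in OE33 and 38.7, 38.6 and 35.5 CPM in FLO1, at least 1010-fold lower in OE33.

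In amino acid metabolism, 13 of 31 tested were higher, 15 lower and 3 not called. Enzymes of serine and cysteine supply were divided between the lines. CBS, which makes cystathionine from homocysteine and serine, had 0 counts in OE33 and 50.8, 43.8 and 50.7 CPM in FLO1, at least 1290-fold lower in OE33. SLC7A11, the cystine importer, had 113, 115 and 137 CPM in OE33, against 6.86, 7.44 and 5.83 CPM in FLO1 (log2 fold change 4.18 ± 0.15, edgeR adjusted p = 1.13e-24). PHGDH, the first enzyme of serine synthesis, averaged 27.6 ± 2.19 CPM in OE33 and 189.8 ± 12.1 CPM in FLO1, and the serine transporter SLC1A4 1.24 ± 0.376 CPM in OE33 and 68.98 ± 4.104 CPM in FLO1. CBS, PHGDH and SLC1A4 were thus lower and SLC7A11 higher in OE33, with PHGDH and SLC7A11 present in both lines.

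Glucose metabolism had 16 of 30 members higher, 11 lower and 3 not called. TXNIP, a brake on glucose uptake, had 199.7, 195 and 196 CPM in OE33, against 1.87, 0.836 and 0.553 CPM in FLO1 (log2 fold change 7.51 ± 0.18, edgeR adjusted p = 3.55e-30). The glucose transporter SLC2A1 averaged 434 ± 16.9 CPM in OE33 and 115 ± 14.3 CPM in FLO1. GPI, a glycolytic isomerase on chromosome 19, ran the other way, at 328 ± 9.92 CPM in OE33 and 1612 ± 144 CPM in FLO1. LDHA was not called, at 1792 ± 34.002 CPM in OE33 and 1845 ± 85.8 CPM in FLO1.

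Cholesterol synthesis and uptake genes were higher in OE33 in 19 of 26, lower in 4 and not called in 3, with a median log2 fold change of 0.69. In the interaction of line and ABS, tested as for the heat shock genes below, 10 of the 26 were called, against 1.73% of all genes. Among the synthesis enzymes, CYP51A1 averaged 53.7 ± 1.64 CPM in OE33 and 11.2 ± 1.72 CPM in FLO1, and MSMO1 41.02 ± 4.62 CPM in OE33 and 8.59 ± 1.91 CPM in FLO1. The controlling factor SREBF2 was not called (log2 fold change 0.11 ± 0.10). SREBF1 was lower in OE33, at 119 ± 10.3 CPM in OE33 and 378 ± 38.9 CPM in FLO1.

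In base excision repair, the pathway of APE1, 14 of 25 genes were higher in OE33, 6 lower and 5 not called, with a median log2 fold change of 0.44. PCNA, the sliding clamp of repair and replication, had 684, 692 and 629 CPM in OE33, against 155, 154 and 142 CPM in FLO1 (log2 fold change 2.16 ± 0.08, edgeR adjusted p = 1.06e-24). Among glycosylases, which cut out damaged bases, SMUG1 averaged 41.9 ± 2.97 CPM in OE33 and 14.4 ± 1.17 CPM in FLO1, and NTHL1 67.8 ± 9.23 CPM in OE33 and 29.3 ± 1.29 CPM in FLO1. The groups did not overlap for these genes. OGG1, which removes oxidized guanine, was lower, at 12.5 ± 0.291 CPM in OE33 and 21.9 ± 2.92 CPM in FLO1, and so was NEIL2 at 19.6 ± 1.05 CPM in OE33 and 40.2 ± 1.01 CPM in FLO1. Beside APEX1, its relative APEX2 was not called (log2 fold change 0.14 ± 0.09).

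Heat shock genes were higher in OE33 in 14 of 21, lower in 5 and not called in 2. HSPA6, an inducible HSP70, had 14.4, 15.9 and 14.5 CPM in OE33, against 1.15, 0.985 and 1.62 CPM in FLO1 (log2 fold change 3.59 ± 0.26, edgeR adjusted p = 4.56e-15). HSPA1B and HSPA1A, near-identical copies whose reads may be divided arbitrarily, averaged 323 ± 3.85 and 334 ± 8.93 CPM in OE33 and 51.4 ± 6.11 and 109.6 ± 7.53 CPM in FLO1. The co-chaperone DNAJB1 averaged 385 ± 6.69 CPM in OE33 and 117 ± 9.58 CPM in FLO1. HSPA2, a testis-enriched HSP70, was lower at 3.15 ± 0.21999 CPM in OE33 and 46.8 ± 2.54 CPM in FLO1. The small heat shock protein HSPB1 was not called (log2 fold change -0.07 ± 0.13). The HSP70 co-chaperone BAG3 was not called either, at 141 ± 1.43 CPM in OE33 and 139.5 ± 9.11 CPM in FLO1. The line difference of the inducible genes did not hold after ABS in shControl cells, where the log2 fold change was -1.94 for HSPA6, -0.55 for HSPA1B and -0.53 for DNAJB1, so that these genes were then lower in OE33. The change of the line difference, tested as an interaction, was -5.53 ± 0.34 for HSPA6 (edgeR adjusted p = 1.13e-14) and -3.20 ± 0.14 for HSPA1B (edgeR adjusted p = 1.28e-18), and 7 of the 21 genes were called in it, against 1.73% of all genes.

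Mitosis genes were lower in OE33 in 18 of 26, higher in 4 and not called in 4, with a median log2 fold change of -0.73. The kinase AURKB averaged 60.6 ± 3.25 CPM in OE33 and 193 ± 14.3 CPM in FLO1, the phosphatase CDC25C 13.04 ± 1.09 CPM in OE33 and 55.2 ± 3.37 CPM in FLO1, and CDC20, an activator of the anaphase-promoting complex, 175 ± 9.63 CPM in OE33 and 421 ± 29.4 CPM in FLO1. CDK1, the mitotic kinase, went against the list at 169 ± 10.5 CPM in OE33 and 70.1 ± 10.6 CPM in FLO1. MKI67, the proliferation marker, was not called (log2 fold change -0.30 ± 0.15, edgeR adjusted p = 0.0691). It was called lower in OE33 with DESeq2's size factors, in DESeq2's Wald test, with a filter at 1 CPM and with none, in the 6 libraries alone and without OE33 replicate 3, at log2 fold changes of -0.31 to -0.40 (edgeR or DESeq2 adjusted p = 6.69e-04 to 0.0444). DNA replication genes divided about as all genes did, with 13 of 32 higher (40.6%), 11 lower (34.4%) and 8 not called. The shares over all genes were 37.6 and 39.9%. GINS1 of the replicative helicase averaged 50.6 ± 2.46 CPM in OE33 and 12.2 ± 1.72 CPM in FLO1. The thymidylate synthase TYMS averaged 99.97 ± 3.52 CPM in OE33 and 365 ± 9.84 CPM in FLO1.

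Ribosomal protein genes differed little, with 27 of 50 higher, 8 lower and 15 not called, a median log2 fold change of 0.26 and 4 higher past 2-fold. Of these, RPL23 and RPL19 are the 17q12 genes given above. RPS16 was the member lower past 2-fold, at 1156 ± 159 CPM in OE33 and 2777 ± 462 CPM in FLO1. Of 13 mitochondrially encoded genes 3 were higher, 2 lower and 8 not called, and mitochondrial genes took 3.19 to 3.43% of the counts in OE33 and 3.11 to 3.24% in FLO1.

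Cancer-testis antigens, which are normally confined to the germ line and reappear in tumors, were on the FLO1 side wherever they could be tested. Of 33 listed genes 11 were tested, since the others had too few counts, and all 11 were lower in OE33. The filter keeps a gene with enough counts in any 1 group, and 9 of these 11 had under 3 counts in OE33. Their common direction was thus largely set by how they entered the test, and it does not extend to the untested members. The summed level of those 11 was 1.08 to 1.46 CPM in OE33 and 1130 to 1250 CPM in FLO1, and the median log2 fold change with genes under 3 counts set at their bound was -7.95. MAGEA4 (chrX:151912509-151925170, plus strand) had 3 counts over all OE33 libraries and 531, 460.2 and 455 CPM in FLO1, a ratio of FLO1 to OE33 of 12900 (4410 to 62600). PRAME had 1.46, 0.968 and 1.16 CPM in OE33, against 285, 269.7 and 274 CPM in FLO1 (log2 fold change -7.85 ± 0.17, edgeR adjusted p = 6.63e-31). PASD1 had 0 counts in OE33 and 125, 121 and 119 CPM in FLO1, at least 3260-fold lower in OE33. All OE33 libraries were thus close to 0 for these antigens and all FLO1 libraries strong. The close copies MAGEA3 and MAGEA6 share reads, so their separate levels of 135 ± 2.66 and 104 ± 6.03 CPM in FLO1 are uncertain, but they had 0 and 2 counts over the OE33 libraries.

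Neural and neuroendocrine genes were also on the FLO1 side, with 8 of 9 tested lower and 1 higher and a median log2 fold change of -5.67. As many listed genes, 9, had too few counts to test, and 4 of those tested had under 3 counts in 1 line. The same limit of the filter holds here. UCHL1, a neuronal ubiquitin hydrolase, had 0 counts in OE33 and 279, 272 and 259 CPM in FLO1, at least 7250-fold lower in OE33. The adhesion molecule NCAM1 had 0 counts in OE33 and 23.2, 19.9 and 21.7 CPM in FLO1, at least 577-fold lower in OE33. L1CAM, another neural adhesion molecule, had 1.27, 1.56 and 2.36 CPM in OE33, against 92.1, 78.2 and 96.4 CPM in FLO1 (log2 fold change -5.67 ± 0.19, edgeR adjusted p = 3.94e-25). Adhesion molecules and enzymes of neurons were thus strong in each FLO1 library. The granule protein CHGA had 0 counts in OE33 and 255 in FLO1, at least 77.4-fold lower in OE33, and the synaptic vesicle protein SYP averaged 0.324 ± 0.0818 CPM in OE33 and 15.7 ± 2.101 CPM in FLO1. NES, an intermediate filament of neural progenitors, was the member on the OE33 side at 8.02 ± 0.268 CPM in OE33 and 3.28 ± 0.61005 CPM in FLO1. The summed level of the 9 genes was 43.1 to 46.2 CPM in OE33 and 464 to 497 CPM in FLO1.

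Imprinted and HOX genes marked the lines as well. H19, the noncoding partner of IGF2 at 11p15, had 1481, 1418 and 1356 CPM in OE33, against 6.93, 2.24 and 2.91 CPM in FLO1 (log2 fold change 8.48 ± 0.24, edgeR adjusted p = 1.83e-27). IGF2 was in the opposite direction, as given above, so each line held high RNA of 1 gene of the pair. MEST averaged 63.9 ± 1.84 CPM in OE33 and 0.626 ± 0.24001 CPM in FLO1. HOX genes differed by cluster: 10 of 15 HOXA genes were higher in OE33 and 4 lower, whereas 7 of 11 HOXB genes and 8 of 10 HOXC genes were lower. HOXA10 averaged 29.5 ± 2.37 CPM in OE33 and 5.28 ± 0.225 CPM in FLO1, but its neighbour HOXA9 2.79 ± 0.487 CPM in OE33 and 31.8 ± 2.86 CPM in FLO1. HOXC9 averaged 0.865 ± 0.136 CPM in OE33 and 24.4 ± 1.01 CPM in FLO1, and HOXB2 11.7 ± 1.34 CPM in OE33 and 0.503 ± 0.0855 CPM in FLO1. HOTAIR, a noncoding RNA of the HOXC cluster, was higher, at 3.96 ± 0.312 CPM in OE33 and 0.506 ± 0.183 CPM in FLO1, and antisense overlap in these clusters makes single genes uncertain without a stated strand setting.

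Among coding genes of at least 10 CPM in 1 line, those with the largest folds were named. On the OE33 side, beside ALDH3A1, EHF and KRT19, they included the secreted protein WFDC2, at 159 ± 18.4 CPM in OE33 and 0.0811 ± 0.0588 CPM in FLO1, and the matrix protease MMP7, at 889.6 ± 50.1 CPM in OE33 and 0.579 ± 0.0377 CPM in FLO1. The kallikrein KLK6 had 1022, 979 and 913 CPM in OE33, against 0.826, 0.776 and 0.5903 CPM in FLO1. FOXQ1, a forkhead factor, averaged 135 ± 3.602 CPM in OE33 and 0.0937 ± 0.137 CPM in FLO1. The FLO1 libraries were at or below 0.826 CPM for each of these other than KRT19. On the FLO1 side stood the peptidase ANPEP, at 0.0755 ± 0.04096 CPM in OE33 and 810.1 ± 78.5 CPM in FLO1, the axonal kinesin KIF1A, at 0.0498 ± 0.0215 CPM in OE33 and 579 ± 56.3 CPM in FLO1, and the LIM domain protein FHL1, at 0.0528 ± 0.0914 CPM in OE33 and 484 ± 23.8 CPM in FLO1. CD70, a ligand of the TNF family, had 0 counts in OE33 and 387, 330.1 and 365 CPM in FLO1, at least 9620-fold lower in OE33. In all, 1483 called genes differed by 32-fold or more, 792 higher and 691 lower in OE33.

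Differences were spread unevenly over the genome. On chromosome 4, 411 of 565 genes tested (72.7%) were higher in OE33 and 73 lower, with a median log2 fold change of 0.99, and chromosomes 20 (56.6%) and 7 (54.4%) followed, against 37.6% over all genes. On chromosome 21, 160 of 222 genes (72.1%) were lower, with a median of -1.35, followed by chromosome 18 (66.0%) and chromosome 19 (61.9%), against 39.9% over all genes. In windows of 21 neighbouring tested genes, the window with the highest median lay on chromosome 7 from 141.8 to 144.4 Mb, at 5.67, and includes EPHA1. Its genes were mixed in direction, with 13 of 21 higher and 6 lower. Another high window, on chromosome 4 from 71.0 to 75.1 Mb, with a median of 3.49 and 17 of 21 genes higher, holds EREG, AREG, BTC and EPGN together with the chemokines CXCL8 and CXCL6. CXCL8 averaged 8.08 ± 0.749 CPM in OE33 and 0.444 ± 0.285 CPM in FLO1. The lowest window, on chromosome X from 151.0 to 153.1 Mb with a median of -9.01, holds PASD1 and MAGEA4. Of its 21 genes 15 were lower and 5 higher. Window medians do not set genes under 3 counts in a line at their bound, so their size is uncertain. PNMA6B, the gene at this median, had 0 counts in OE33 and 195 in FLO1, and its bound was -5.89. The limit of the filter given for cancer-testis antigens holds here too. The place of the outermost windows depended on their size. With 11 genes the highest lay on chromosome 19 from 50.8 to 51.0 Mb, at 8.06, and holds KLK6 among other kallikreins, and with 41 genes it lay on chromosome 7 from 7.6 to 22.4 Mb, at 2.97. The window of EPHA1 was not among the 3 highest at either size. The lowest window was again on chromosome X with 11 genes, at -9.80, but on chromosome 19 from 35.8 to 37.8 Mb with 41, at -3.71.

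**Figure D4:**
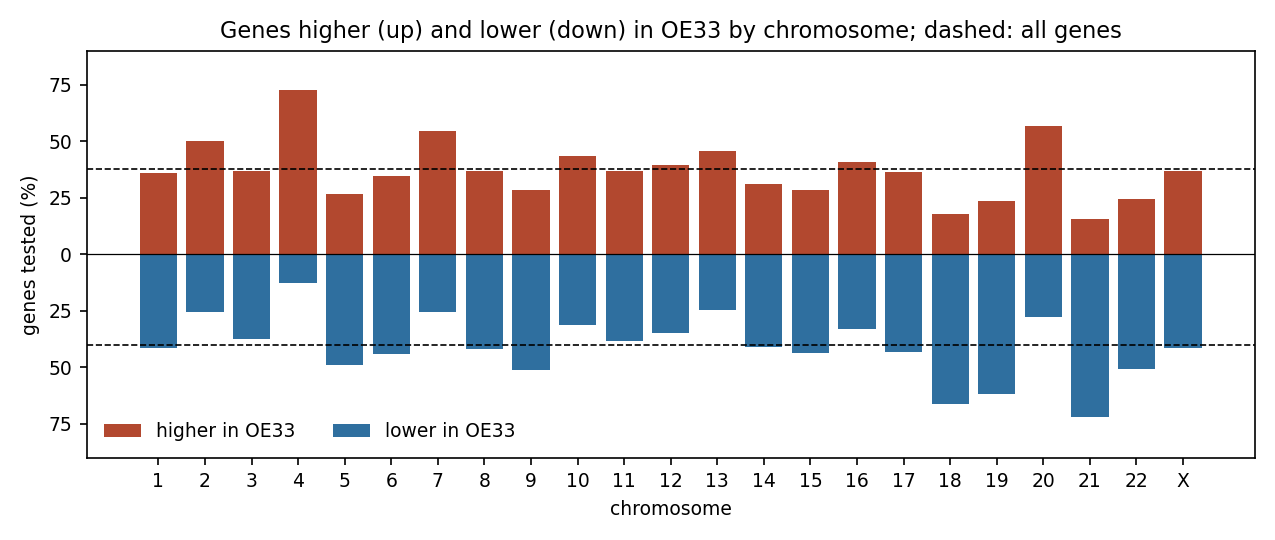
Share of the genes tested on each chromosome that were higher in OE33 (bars above 0) and lower in OE33 (bars below 0), in percent; dashed lines give the shares over all genes, 37.6 and 39.9%. Chromosomes 4, 20 and 7 have the tallest bars above 0, and chromosomes 21, 18 and 19 the longest below it.

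The line difference was compared with that in the other 5 matched pairs of groups. These pairs use other libraries than the main contrast, but 1 fit gave all the contrasts, so they share its filter, scaling and dispersion estimates. In these pairs 77.6% of all genes were called in shControl cells after ABS, 77% in shAPE1#1, 75.8% in shAPE1#1 after ABS, 78% in shAPE1#3 and 78.1% in shAPE1#3 after ABS. Of the 14114 genes called in unexposed shControl cells, 12881 were called with the same sign in shControl cells after ABS, 12695 in shAPE1#1, 12058 in shAPE1#1 after ABS, 12701 in shAPE1#3 and 12514 in shAPE1#3 after ABS. In all 5 pairs 10608 genes (75.2%) were called with the same sign. Between 38 and 148 genes a pair were called with the opposite sign. For the 7195 genes past 2-fold the shares were 96.4 to 98.2% a pair, and 6678 (92.8%) were called with the same sign in all 5. The size of a very large difference was less stable than its sign. VIM was at -12.25 in unexposed shControl cells and from -10.97 to -8.91 in the other pairs. ALDH3A1 was at 12.08 and from 5.96 to 12.85, and MMP7 at 10.58 and from 10.07 to 13.46. The cause of these shifts, such as another floor near 0, was not tested. The line differences of EPCAM, CDH1, ZEB1, MET, ERBB2 and HMOX1 kept their sign in all 6 pairs. The difference between the line effects after ABS and without it was called for 315 genes (1.73%), of which HSPA6 and its relatives are the examples given above.

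**Figure D5:**
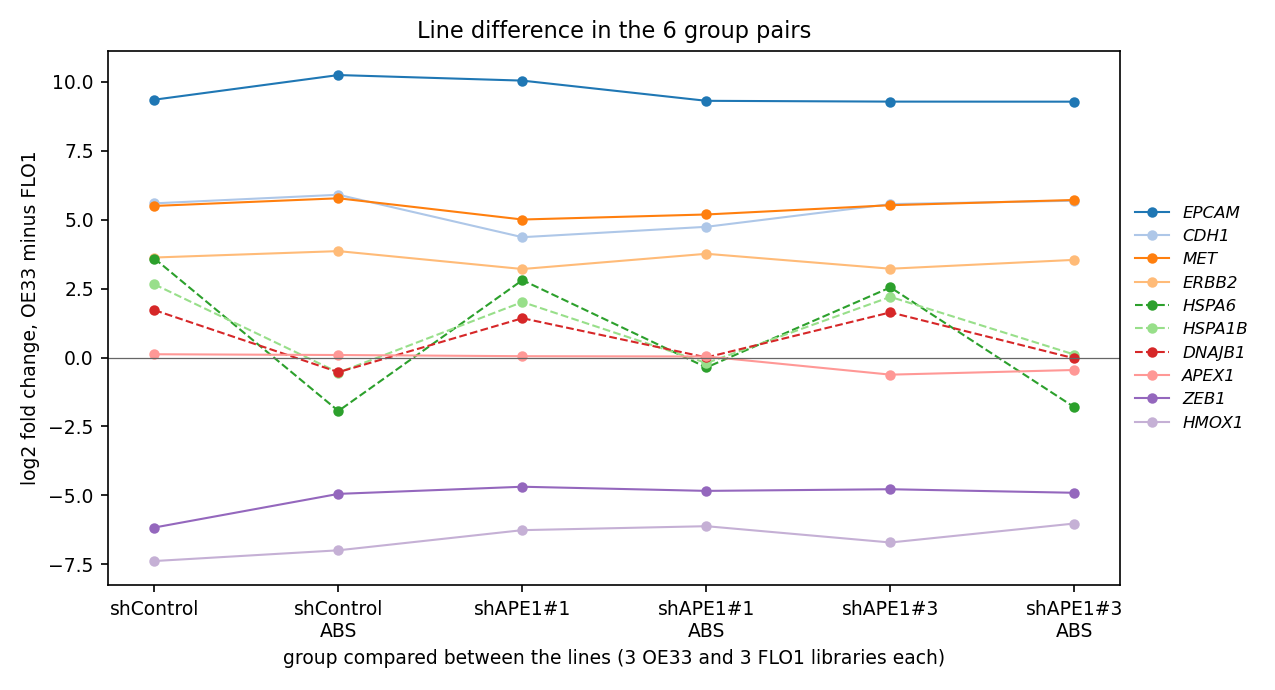
Log2 fold change, OE33 minus FLO1, of 10 genes in the 6 pairs of groups, unexposed shControl cells first; each point compares 3 OE33 with 3 FLO1 libraries. EPCAM, CDH1, MET and ERBB2 stay above 0 and ZEB1 and HMOX1 below 0 in all pairs, while HSPA6, HSPA1B and DNAJB1 (dashed) are above 0 in the 3 unexposed pairs and lower after ABS.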

How the data were processed

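PolyA RNA of the cells was sequenced, and the authors deposited whole-number read counts per Ensembl gene for 36 libraries. Per the submitters' processing notes, Trimmomatic 0.36, STAR 2.5.2b and featureCounts (Subread 1.5.2) were used with GRCh38. Neither the annotation used nor how strand and multiply mapped reads were handled is stated in the labels, so genes that overlap, lie antisense or have near copies may share reads. Symbols and gene positions came from GENCODE 29 for 56898 of 57500 gene IDs, and the rest held 0.0183% of the counts. Counts were scaled by TMM, filtered by filterByExpr and fitted over all 36 libraries in edgeR 4.0.16 with 1 coefficient per group, a robust quasi-likelihood fit and Benjamini-Hochberg adjustment over 18199 genes, with a threshold of 0.05. The 2-fold test was edgeR's glmTreat. The procedure was run on simulated counts in which few genes differed between the lines. Most genes differed in the real data, so that run did not test the scaling under such a difference. Genes at 0 counts in a line were set against 3 counts over that group, and intervals are exact Poisson intervals at 95%, for counting error only. Named genes were APEX1, up to 20 of the largest folds each way, up to 8 called members of a list by fold, cell type markers, up to 4 uncalled members, and genes of the outermost windows. Some genes that this rule names are not reported here, but they are included in the counts. The members and lists were chosen with earlier results of these data known. Promoters, microRNAs and 3' UTRs were read from RefSeq and GENCODE tables of GRCh38. Alternatives were DESeq2 1.42.0, other size factors and filters, the 6 libraries alone, a replicate block and the omission of each library.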

Additional observations from a re-analysis of the deposited data

Results flagged for a closer look

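The difference between the lines changed with ABS in shControl cells for 12 of the genes named above, by the edgeR interaction test over all genes (1.73% called). The values are the log2 difference between OE33 and FLO1 after ABS minus that without ABS. It was -5.53 ± 0.34 for HSPA6, -3.29 ± 0.14 for HSPA1A, -3.20 ± 0.14 for HSPA1B and -2.25 ± 0.11 for DNAJB1, genes that were higher in OE33 without ABS. BAG3, which was not called without ABS, had -1.46 ± 0.13. The interaction was 0.95 ± 0.20 for BMP4, 1.67 ± 0.39 for OAS1 and 3.18 ± 0.82 for CEACAM6, which were higher in OE33 without ABS. It was 2.85 ± 0.70 for TNF, which was lower in OE33 without ABS and rested on 4 counts in OE33. DSP had 0.66 ± 0.17, OAS3 0.68 ± 0.15 and CDKN1B 0.66 ± 0.15, and none of these was called without ABS. With 3 libraries a group, no test for single outlying libraries was made.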

How the results depend on the processing

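The count of called genes was between 12526 and 14735, and that past 2-fold between 6046 and 7519, under the alternatives of size factors, filters, DESeq2's Wald test and the 6 libraries alone. With each library left out in turn, called genes ranged from 13667 to 13818, genes past 2-fold from 7048 to 7143, list members higher from 466 to 488 and lower from 291 to 301, genes called with the same sign in all 5 other pairs from 10515 to 10561, and interaction calls from 214 to 271. The interaction gave 526 genes in DESeq2's Wald test, against 315. The median of the highest window was 8.06 with 11 genes and 2.97 with 41, against 5.67 with 21, each at another place, and that of the lowest window -9.80 with 11 genes, also on chromosome X, and -3.71 with 41, on chromosome 19, against -9.01. These medians were taken without bounds for genes under 3 counts in a line. The mean number of genes strong in the other line and at 0 counts was 54 in OE33 and 11.7 in FLO1 for genes at 30 CPM or more, against 16 and 1.33 at 100 CPM or more, and 3.67 in OE33 at 300 CPM or more. Uncalled genes near 0 changed sign. CDKN2B had -0.0115 with DESeq2's size factors, -0.0115 in DESeq2's Wald test, -0.00675 with a filter at 1 CPM and from -0.00637 to 0.0476 with 1 library left out. MUC2 ranged from -0.66 to 4.59 with 1 library left out, and KRT17 from -0.84 to 2.01. The BAG3 log2 fold change was -0.0284 with DESeq2's size factors, -0.0284 in DESeq2's Wald test, -0.0228 with a filter at 1 CPM, -0.004697 in the 6 libraries alone and from -0.0301 to 0.0621 with 1 library left out. The cause of these shifts was not tested. Of the 213 genes named with values, 205 had the same direction and call under every alternative that gave them a value. That share was raised by a choice made after these values were seen: 15 further list members, none called, were left unnamed, of which 9 changed sign and 6 became called under at least 1 alternative.

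The labels do not state that the shared replicate numbers pair the lines. Deviations from the group means correlated at 0.12, -0.12 and -0.19 for same-numbered OE33 and FLO1 libraries. For differently numbered libraries the correlations ran from -0.271 to 0.341. With 3 libraries a group, whose deviations are tied to each other, these values cannot settle whether libraries were handled in pairs. With the replicate number as a block, 14031 genes were called and 7178 passed 2-fold, list members were higher in 478 and lower in 296, the interaction gave 273 genes, and 10549 genes recurred in all 5 other pairs.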

Other observations

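These families were picked after their values were seen, so their one-sided counts describe the choice as well as the lines. Over all genes tested 37.6% were higher and 39.9% lower in OE33. Only members with enough counts in at least 1 group are included. All 7 tested kallikrein genes of the KLK family were higher in OE33, with a median log2 fold change of 8.58, whereas all 7 tested NKX homeobox genes were lower, with a median of -5.44. Of 6 toll-like receptor genes 5 were higher and 1 lower. Of 7 genes of voltage-gated sodium channel (SCN) subunits 5 were lower and none higher, and of 6 genes of the KCNH potassium channels 5 were lower and 1 higher.

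Zinc finger genes (symbols ZNF, ZFP, ZSCAN and ZKSCAN) on chromosome 19 were lower in OE33 in 103 of 172 and higher in 52, with a median log2 fold change of -0.80. Those elsewhere were lower in 105 of 261 and higher in 89, with a median of -0.08. The other coding genes of chromosome 19 had a median of -0.84, close to that of its zinc finger genes.

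The alternative ATPases of the SWI/SNF remodeler were both higher in OE33. SMARCA2 had 48.6, 49.8 and 50.97 CPM in OE33, against 5.03, 5.29 and 5.05 CPM in FLO1 (log2 fold change 3.28 ± 0.13, edgeR adjusted p = 1.69e-23), beside the SMARCA4 values given above.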
